A study of Mus musculus with 20 samples.

Results

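The genes described here are 10 genes by which astrocytes are usually recognised in brain tissue, namely Aqp4, Gfap, Aldh1l1, Slc1a2, Slc1a3, Gja1, S100b, Glul, Sox9 and Fgfr3. They were chosen by name as astrocyte genes, with earlier results of these data known. All 10 are among the 39179 genes listed for each mouse, and all 10 passed the low-count filter (over 1 CPM, a count scaled to library size, in 3 or more mice), as did 14792 genes in all. Astrocytes are glial cells that tile the whole striatum. They take up glutamate after its release at synapses, turn it into glutamine for return to neurons, buffer potassium and water, couple to each other through gap junctions and wrap blood vessels with their endfeet. In injury and disease they enlarge and raise intermediate filament proteins, a state called reactive.

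RNA from the whole striatum, dorsal and ventral, of 20 male mice was sequenced. The mice belonged to generation 17 of a selection experiment for home cage activity and were about 6.5 months old. The High-Active line had been bred for the distance traveled in the home cage, and the Control line had been bred at random from the same outbred founders, which descended from crosses of inbred strains. In each line 5 mice received saline and 5 received 0.25 mg/kg amphetamine, a psychostimulant, by injection 2 hours before tissue collection. The 4 groups are named by line and injection (High-Active saline, for example). There was 1 line of each kind, so differences between the lines cover selection, drift and relatedness together, and these cannot be told apart. By the sires and dams in the labels, the 10 Control mice had 8 pairs of parents and the 10 High-Active mice had 5. In all, 4 Control and 9 High-Active mice shared both parents with another mouse of their line, so that p values treat related mice as independent. The methods of the study instead describe the mice as coming from different families, and this conflict was not resolved.

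Between 32388971 and 53710713 read counts per mouse fell on genes, with a median of 41703853.5. The member with the fewest counts, Sox9, had at least 531 in every mouse. Values below are in CPM, scaled between libraries by TMM, and differences are log2 differences from one edgeR quasi-likelihood fit over all 20 mice, with Benjamini-Hochberg adjustment over the 14792 genes and a threshold of 0.1. The standard error (SE) belongs to the log2 difference. The striatum is a mixture of cell types, and fewer astrocytes cannot be told apart from less RNA per astrocyte.

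Compared per kilobase of exon, so that genes of different length can be set side by side, the 10 genes spanned a wide range of levels. Glul, glutamine synthetase, had the highest mean level with 389 RPKM (CPM per kilobase of exon) over the 20 mice. Slc1a2, the main astrocyte glutamate transporter (also called GLT-1), followed with 216 RPKM, and S100b, a calcium-binding protein, with 96.4 RPKM. The levels of the other genes were lower, with 68.2 RPKM for the glutamate transporter Slc1a3 (GLAST), 23.4 RPKM for the intermediate filament gene Gfap and 20.2 RPKM for the gap junction gene Gja1 (connexin 43). Fgfr3, a fibroblast growth factor receptor, had 17.9 RPKM and Aqp4, the water channel of astrocyte endfeet, 13.6 RPKM. The lowest levels were those of Aldh1l1, a folate enzyme, with 9.78 RPKM, and of Sox9, a transcription factor that maintains glial identity, with 4.80 RPKM. All 10 genes were detected in every mouse, so the defining markers of astrocytes were present throughout. The members lie on 8 chromosomes of GRCm38, of which chromosomes 10 and 11 hold 2 each.

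The letters upstream of 3 members are printed because of their line differences or because they hold a searched motif. S100b had the largest difference between the lines, Gja1 lies on the same chromosome and differed in the opposite direction, and Slc1a3 holds a motif. The sequences are from RefSeq on GRCm38.p6, cover the 250 bases before the annotated start, and run 5′ to 3′ on the strand of the gene. S100b is at chr10:76253586-76253835 on the plus strand, Gja1 at chr10:56377050-56377299 on the plus strand, and Slc1a3 at chr15:8710808-8711057 on the minus strand. Capitals mark the matched letters of a motif.
S100b: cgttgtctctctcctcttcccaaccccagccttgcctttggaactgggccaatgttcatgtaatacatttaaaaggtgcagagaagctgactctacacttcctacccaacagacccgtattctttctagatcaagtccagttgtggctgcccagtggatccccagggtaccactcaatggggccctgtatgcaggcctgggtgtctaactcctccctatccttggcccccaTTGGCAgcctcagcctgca
Gja1: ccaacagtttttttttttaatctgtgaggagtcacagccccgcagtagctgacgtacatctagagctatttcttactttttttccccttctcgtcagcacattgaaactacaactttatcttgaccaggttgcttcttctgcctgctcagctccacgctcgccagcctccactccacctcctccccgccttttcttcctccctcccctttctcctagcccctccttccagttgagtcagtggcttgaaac
Slc1a3: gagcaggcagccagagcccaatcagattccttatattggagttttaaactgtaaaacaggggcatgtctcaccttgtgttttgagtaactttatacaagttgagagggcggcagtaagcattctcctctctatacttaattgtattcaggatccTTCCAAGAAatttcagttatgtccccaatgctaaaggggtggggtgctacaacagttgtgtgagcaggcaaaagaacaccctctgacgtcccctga
Binding motifs of factors known in astrocytes were searched on both strands in the 8 members with an entry. The window of Glul and each window of Fgfr3 lay wholly in exons annotated for any gene on either strand (250 of 250 bases). The Glul window ended at 153899928, before the annotated bounds of Glul, which begin at 153899944. The windows of Slc1a2, Aldh1l1 and Gfap lay inside the bounds of the gene, before an internal start. The STAT motif TTCNNNGAA was present in 1 member, Slc1a3, beginning 96 bases before the start, and in 7.02% of all 32851 promoters of that length. The letters TTGGCA, bound by NFI factors, were present in 1 member, S100b, beginning 19 bases before the start, and in 12.3% of all promoters. The SOX motif ACAAAG was in 0 of the 8 and in 16.5% of all promoters. A match describes the letters only and no binding was measured.

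The lines were compared to find genes whose expression in the striatum differed between High-Active and Control mice. Of the 10 astrocyte genes, 7 differed, where 14.5% of all genes tested did. S100b was downregulated by far the most in High-Active mice, and Slc1a2 was lower by a small margin. Aldh1l1, Fgfr3, Glul, Gja1 and Sox9 were upregulated, each by less than S100b fell. Slc1a3, Gfap and Aqp4 did not pass the threshold. Among all genes 7.63% were upregulated and 6.9% downregulated, against 5 and 2 of the 10 members. The median log2 difference of the members was 0.14, and that of all genes was -0.00093. The summed level of the 10 had a median of 5438 CPM in Control (range 5013 to 5845) and 5413 CPM in High-Active mice (range 5010 to 5685). Slc1a2 and Glul, with means of 2834 and 1294 CPM over the 20 mice, made up most of this sum. By group its medians were 5117 CPM (Control saline), 5750 CPM (Control amphetamine), 5354 CPM (High-Active saline) and 5620 CPM (High-Active amphetamine). For no member were all 10 mice of one line above all 10 of the other, as was the case for 0.264% of all genes.

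**Figure D1:**
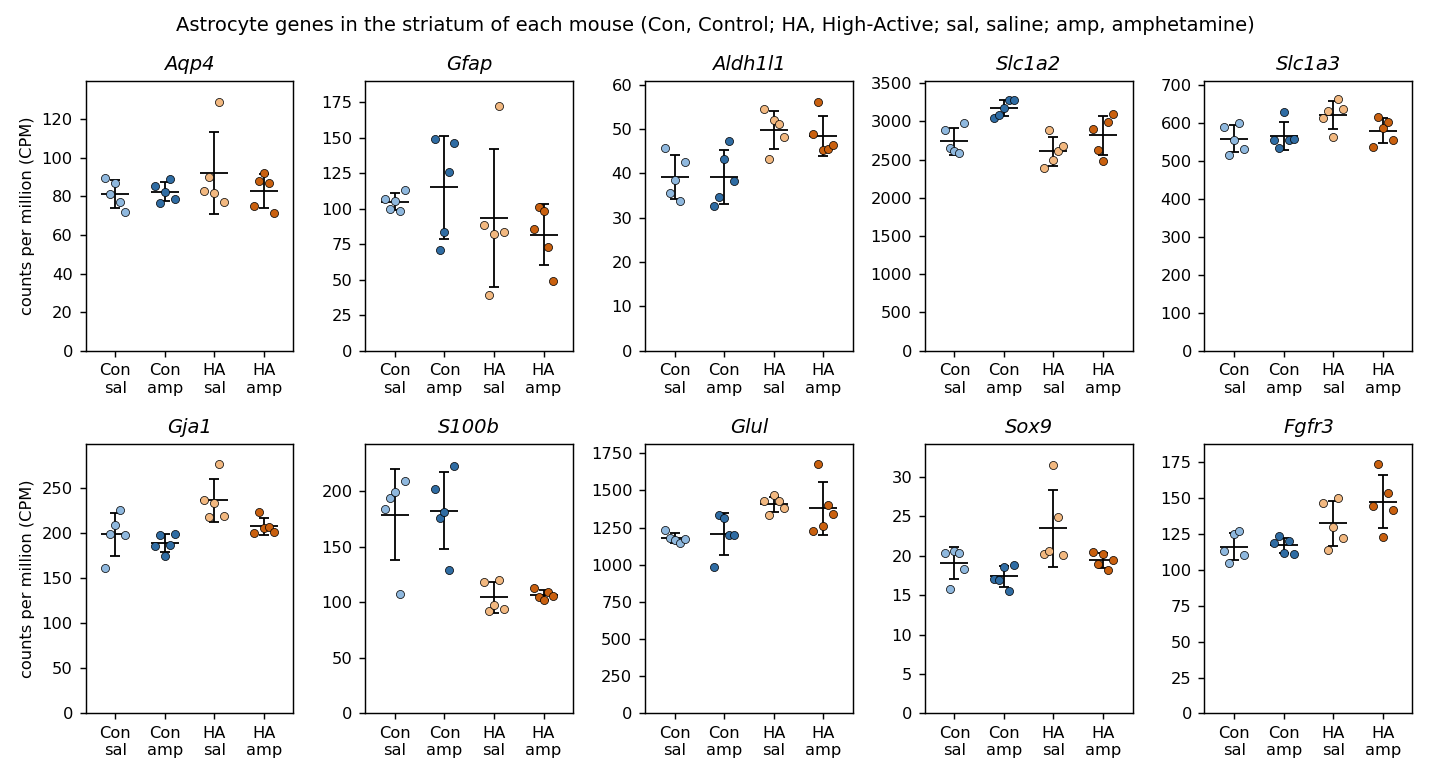
Level of each astrocyte gene in each mouse, in CPM on a linear axis from 0, with 5 mice in each of the 4 groups (Con, Control; HA, High-Active; sal, saline; amp, amphetamine); the horizontal bars show the mean and the whiskers the SD. S100b lies between 92.3 and 120 CPM in every High-Active mouse and above that in 9 of 10 Control mice, while Gfap spreads widely in 3 of the 4 groups.

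S100b encodes a calcium-binding protein that is found in astrocytes and also in some oligodendrocytes. Its levels in Control mice were 108, 184, 194, 199 and 209.7 CPM after saline and 129.5, 176, 181, 202 and 223 CPM after amphetamine. In High-Active mice they were 92.3, 93.9, 97.5, 118 and 120.2 CPM after saline and 102, 105, 106, 109 and 113 CPM after amphetamine. All but 1 of the 10 Control mice exceeded every High-Active mouse, the exception being Control saline mouse 477 with 108 CPM. The High-Active mice were also more alike, with a coefficient of variation of 9.12% against 19.8% in Control. S100b fell by 0.77 on the log2 scale (SE 0.11, 95% interval -0.999 to -0.548, adjusted p = 0.000347), so that the level fell by 41.5%, and ranked 27 of the 14792 genes. The difference was nearly the same after saline (log2 -0.78, adjusted p = 0.0160) and after amphetamine (log2 -0.77, adjusted p = 0.0221), and it passed the threshold with each mouse left out (log2 -0.85 to -0.73). S100b (ENSMUSG00000033208, chr10:76253853-76261159 of GRCm38, plus strand) overlaps Dip2a on the opposite strand. Dip2a was higher in High-Active mice (log2 0.20, adjusted p = 0.0491), opposite to S100b. The strand setting of the read counting is not given in the sources used here, so reads of overlapping genes may not have been told apart.

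Glul and Aldh1l1 encode metabolic enzymes of astrocytes, the first making glutamine from glutamate and ammonia and the second oxidising 10-formyltetrahydrofolate in the folate cycle. Glul measured 1144, 1168, 1174, 1178 and 1237 CPM in Control saline and 984, 1198, 1199, 1317 and 1332 CPM in Control amphetamine mice. It measured 1337, 1380, 1427, 1430 and 1468 CPM in High-Active saline and 1227, 1260, 1340, 1401 and 1677 CPM in High-Active amphetamine mice. Every High-Active saline mouse was above every Control saline mouse, a separation that 4.23% of all genes showed, whereas the amphetamine groups overlapped. The log2 difference between the lines was 0.23 (SE 0.056, adjusted p = 0.0213). Glul (ENSMUSG00000026473, chr1:153899944-153909723, plus strand) overlaps Teddm2 on the opposite strand and Mir8114.

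Aldh1l1 had levels of 33.7, 35.6, 38.5, 42.6 and 45.6 CPM in Control saline and 32.7, 34.6, 38.3, 43.3 and 47.4 CPM in Control amphetamine mice. The High-Active levels were 43.2, 48.1, 51.0, 52.1 and 54.5 CPM after saline and 45.2, 45.4, 46.4, 48.9 and 56.2 CPM after amphetamine. All 10 High-Active mice lay above the Control median and 6 lay above every Control mouse. With a log2 difference of 0.32 (SE 0.072, adjusted p = 0.0120), Aldh1l1 had the largest increase of the members, 25.1%. Both enzymes passed the threshold with each mouse left out, Aldh1l1 with log2 differences of 0.29 to 0.36 and Glul with 0.19 to 0.24. Aldh1l1 (ENSMUSG00000030088, chr6:90486427-90600203, plus strand) overlaps Gm45901 and Gm44236 on its own strand and Gm15756 on the other.

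Slc1a2 and Slc1a3 encode the transporters by which astrocytes clear glutamate from the synaptic cleft. Slc1a2 levels were 2579, 2608, 2657, 2886 and 2972 CPM in Control saline and 3048, 3084, 3174, 3273 and 3282 CPM in Control amphetamine mice. They were 2385, 2496, 2612, 2672 and 2887 CPM in High-Active saline and 2476, 2621, 2900, 2987 and 3089 CPM in High-Active amphetamine mice. The lines overlapped widely, although 9 of the 10 High-Active mice were below the Control median. The decrease was small, with a log2 difference of -0.12 (SE 0.045, adjusted p = 0.0988), and its call depended on single mice. It was lost without any one of the Control mice 369, 407, 409, 411, 448, 454, 457 and 883 or the High-Active mice 197, 415, 487, 499 and 871 (log2 differences of -0.13 to -0.10, adjusted p of 0.104 to 0.171). It was also lost with RLE normalization (log2 -0.12), with no filter (adjusted p = 0.193), in the likelihood-ratio test (adjusted p = 0.152) and with the families as a block in limma-voom (adjusted p = 0.105).

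Slc1a3 ranged from 518 to 629 CPM in Control mice and from 537 to 664 CPM in High-Active mice, and its log2 difference of 0.094 (SE 0.041, adjusted p = 0.151) did not pass the threshold. Without Control amphetamine mouse 409, which had the highest Control level, it did (log2 0.11, adjusted p = 0.0875). The 2 transporters thus had log2 differences of opposite sign, of which only that of Slc1a2 passed with all mice. Slc1a2 (ENSMUSG00000005089) lies at chr2:102658659-102790784 on the plus strand with Gm13872 opposite to it, and Slc1a3 (ENSMUSG00000005360) at chr15:8634124-8710764 on the minus strand with Gm37310 on its own strand.

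Gja1 and Aqp4 serve the astrocyte network and its contacts with vessels, Gja1 as a gap junction channel and Aqp4 as the water channel. Gja1 measured 161, 197, 199, 209 and 225 CPM in Control saline and 174, 185, 187, 197 and 199 CPM in Control amphetamine mice. In High-Active mice it measured 217, 218, 233, 236 and 276 CPM after saline and 199, 201, 206, 206 and 223 CPM after amphetamine. The lines narrowly did not overlap after amphetamine (highest Control mouse 198.8 CPM, lowest High-Active mouse 199.4 CPM), as for 2.94% of all genes, and all 10 High-Active mice exceeded the Control median. Its log2 difference was 0.19 (SE 0.054, adjusted p = 0.0352), and each fit with a mouse left out passed the threshold (log2 0.16 to 0.22). Aqp4 ranged from 71.7 to 89.6 CPM in Control and from 71.5 to 129 CPM in High-Active mice. Its difference of 0.092 (SE 0.080, adjusted p = 0.493) did not pass, and it was 0.016 without High-Active saline mouse 871, which had the highest level. Gja1 (ENSMUSG00000050953, chr10:56377330-56402513, plus strand) overlaps no other gene, and Aqp4 (ENSMUSG00000024411, chr18:15389496-15410982, minus strand) overlaps AC133525.2 on the other strand.

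Gfap encodes the intermediate filament protein by which reactive astrocytes are stained. It was the most variable member, with 98.5, 99.7, 106, 107 and 113 CPM in Control saline and 70.8, 83.4, 126, 147 and 149 CPM in Control amphetamine mice. The levels were 39.5, 82.5, 83.6, 88.8 and 173 CPM in High-Active saline and 48.8, 73.2, 85.8, 98.6 and 101 CPM in High-Active amphetamine mice. Control saline mice lay close together (coefficient of variation 5.72%), whereas High-Active saline mice differed by over 4-fold (coefficient of variation 51.9%). The highest value belonged to mouse 871 and the lowest to mouse 483, both in the High-Active saline group. The log2 difference between the lines was -0.33 with a wide interval of -0.76 to 0.093 (SE 0.20, adjusted p = 0.310), which holds differences of either sign. In 3 alternative fits Gfap was called lower. These were the fit without mouse 871 (log2 -0.51, adjusted p = 0.0944), the likelihood-ratio test with robust dispersions (log2 -0.40, adjusted p = 0.0456) and the fit with ependymal and choroid plexus markers as a covariate (log2 -0.58, adjusted p = 0.0654). Gfap (ENSMUSG00000020932, chr11:102887336-102900912, minus strand) overlaps Gm26668 on the other strand.

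Sox9 is a transcription factor and Fgfr3 a receptor tyrosine kinase, both active in glial progenitors and kept on in mature astrocytes. Fgfr3 measured 105, 111, 113, 125 and 127 CPM in Control saline and 111, 112, 119, 119.8 and 123 CPM in Control amphetamine mice. It measured 114, 122, 129.7, 146 and 150.2 CPM in High-Active saline and 123, 142, 145, 153 and 174 CPM in High-Active amphetamine mice. Of the 10 High-Active mice, 7 were above every Control mouse, and the log2 difference of 0.26 (SE 0.060, adjusted p = 0.0148) passed the threshold with each mouse left out (log2 0.23 to 0.29). Sox9 measured 15.8, 18.4, 20.4, 20.4 and 20.6 CPM in Control saline and 15.6, 16.9, 17.1, 18.6 and 18.8 CPM in Control amphetamine mice. Its High-Active levels were 20.1, 20.2, 20.6, 24.9 and 31.5 CPM after saline and 18.2, 18.9, 19.4, 20.2 and 20.4 CPM after amphetamine. Only High-Active saline mice 499 and 871 exceeded every Control mouse for Sox9. The log2 difference of Sox9 was 0.23 (SE 0.076, adjusted p = 0.0707). This call was lost without any one of the Control mice 407, 448, 454 and 883 or the High-Active mice 415, 487 and 871 (log2 0.20 to 0.23, adjusted p of 0.101 to 0.121). Over all fits with a mouse left out the Sox9 difference ranged from 0.16 to 0.25, the lowest without mouse 499, which had the highest level. Sox9 (ENSMUSG00000000567, chr11:112782224-112787760, plus strand) overlaps no other gene, and Fgfr3 (ENSMUSG00000054252, chr5:33721674-33737068, plus strand) overlaps G630022F23Rik on the other strand.

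**Figure D2:**
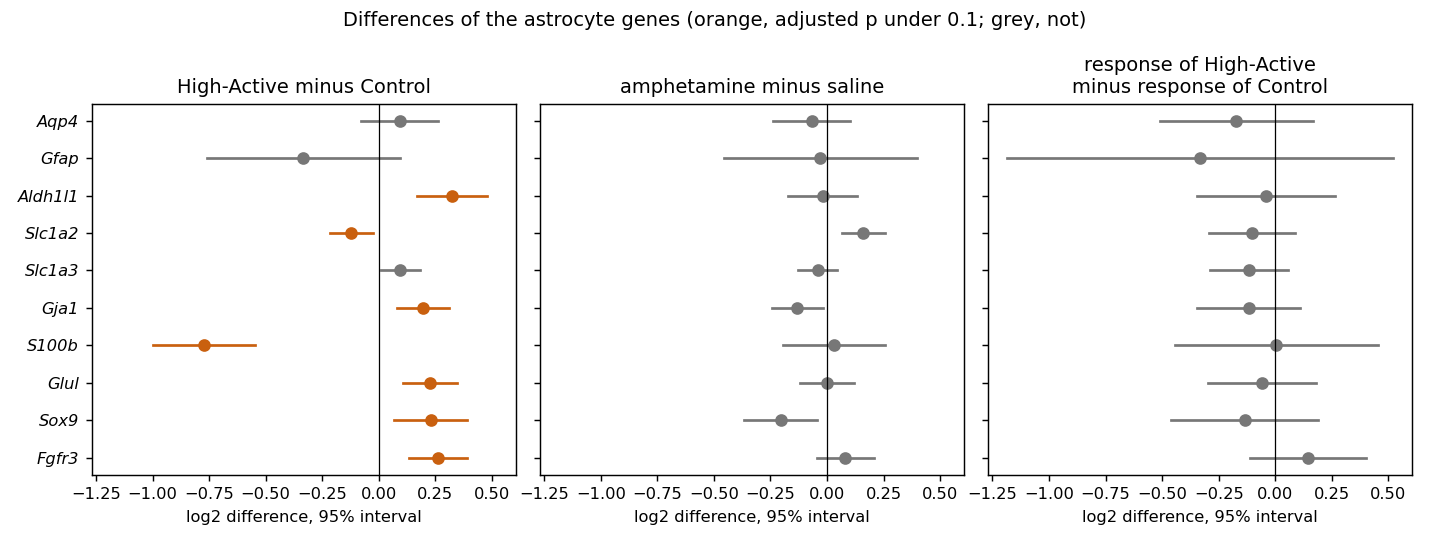
Log2 differences of the 10 astrocyte genes with 95% intervals, for the line, amphetamine and interaction comparisons; orange marks an adjusted p under 0.1. In the line comparison 7 genes are orange, with S100b farthest from 0 at -0.77, and in the other comparisons none is.

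Some markers of neighbouring tissue differed between the lines, where 14.5% of all genes did. All 10 markers of cortical excitatory neurons had lower values in High-Active mice, of which Tbr1, Neurod2 and Slc17a7 passed (log2 -0.69, -0.91 and -0.85; median of the list -0.74). None of these markers was at 0 in every mouse. Their summed level was 305 to 861 CPM in Control saline, 627 to 885 CPM in Control amphetamine, 151 to 339 CPM in High-Active saline and 226 to 1009 CPM in High-Active amphetamine mice. With the mean log2 level of these markers as a covariate, 2 of the 10 astrocyte genes were called, S100b (log2 -0.68, adjusted p = 0.0140) and Aldh1l1 (log2 0.35, adjusted p = 0.0704), and 384 genes in all. In that fit the log2 differences were 0.24 for Fgfr3, 0.19 for Glul, 0.19 for Sox9, 0.12 for Gja1 and -0.072 for Slc1a2, and of these 5 Gja1 and Slc1a2 moved nearest to 0 relative to the fit without the covariate.

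Ependymal cells and the choroid plexus border the striatum at the ventricle, and ependymal cells share several genes with astrocytes. All 9 of their markers had higher values in High-Active mice, with Ccdc153, Foxj1 and Rarres2 passing (log2 1.17, 0.76 and 0.46, median of the list 0.76). Among all genes 14.5% passed. Their summed level spread from 41.6 to 763 CPM in Control saline, 40.9 to 289 CPM in Control amphetamine, 68.0 to 876 CPM in High-Active saline and 51.5 to 949 CPM in High-Active amphetamine mice, and no marker was at 0 in every mouse. Over 500 CPM were summed in 4 mice, Control saline 469, High-Active saline 197 and 871 and High-Active amphetamine 487. Ttr made up most of such sums, with 651 CPM in mouse 469, 736 CPM in mouse 871 and 816 CPM in mouse 487. The cut thus sorted mice mainly by Ttr. High-Active saline mouse 886, with the highest Foxj1 level (20.9 CPM), was kept. Without the 4 mice over 500 CPM, 4 astrocyte genes were called, S100b (log2 -0.82), Fgfr3 (log2 0.24), Aldh1l1 (log2 0.30) and Glul (log2 0.23), and 733 genes in all. With the ependymal and choroid plexus markers as a covariate, these 4 and Gfap were called, and 1185 genes in all. Gja1 (log2 0.16, adjusted p = 0.152) and Sox9 (log2 0.25, adjusted p = 0.155) did not pass without the 4 mice.

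Testing the lines within each treatment, with 5 mice per group, gave fewer calls. In saline mice S100b, Aldh1l1 (log2 0.34, adjusted p = 0.0929) and Gja1 (log2 0.25, adjusted p = 0.0961) were called, 3 of 10 where 3.74% of all genes were. In amphetamine mice S100b and Fgfr3 (log2 0.33, adjusted p = 0.0903) were called, 2 of 10 where 1.3% of all genes were. The sign of the line difference was the same in both treatments for all 10 genes. S100b was thus the only member called in both treatments, and a difference between treatments was tested as the interaction.

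Amphetamine was compared with saline to find genes that responded within 2 hours of a single dose. Of the 10 astrocyte genes, 0 passed the threshold in the quasi-likelihood test of edgeR, as did 0.0% of all genes. At an unadjusted p under 0.05 there were 3 members, where 12.5% of all genes fell under it. These were Slc1a2 with a log2 difference of 0.16 (SE 0.045, adjusted p = 0.204), Sox9 with -0.20 (SE 0.076, adjusted p = 0.285) and Gja1 with -0.13 (SE 0.054, adjusted p = 0.333). Without High-Active saline mouse 499 the difference of Sox9 was -0.14. DESeq2 called Slc1a2 (log2 0.16, adjusted p = 0.0405) among 391 genes, and the likelihood-ratio test called 458 genes but 0 members. In limma-voom 0 members and 0 genes were called.

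The Slc1a2 values printed above separated the treatments in Control mice, with every amphetamine mouse (3048 to 3282 CPM) above every saline mouse (2579 to 2972 CPM), as for 1.11% of all genes. In High-Active mice the treatments overlapped (2385 to 2887 CPM after saline, 2476 to 3089 CPM after amphetamine), as they did for the other 9 members, and they separated for 0.892% of all genes. The log2 difference was 0.21 in Control mice (95% interval 0.076 to 0.35) and 0.11 in High-Active mice (95% interval -0.026 to 0.24). Without High-Active amphetamine mouse 415 the overall difference of Slc1a2 passed (log2 0.17, adjusted p = 0.0804), among 339 genes. In the same comparison all 10 cortical markers had higher values after amphetamine, with a median log2 difference of 0.91 and an unadjusted p under 0.05 each, although 0 passed the threshold. With these markers as a covariate the difference of Slc1a2 was 0.10 (adjusted p = 0.997). For the other 7 members the 95% intervals lay within -0.24 and 0.26, except that of Gfap (-0.46 to 0.40).

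The interaction asked whether the lines responded differently to amphetamine. None of the 10 astrocyte genes passed in the edgeR quasi-likelihood test, and 0 of all 14792 genes tested did. At an unadjusted p under 0.05 there were 0 members, where 2.97% of all genes fell under it. DESeq2, the likelihood-ratio test and limma-voom also called 0 members, and over all genes they called 0, 6 and 0. The values were negative for 8 members, that is, the response of High-Active mice was the lower one, with a median of -0.11 against 0.0012 for all genes. The farthest from 0 was Gfap with -0.33, whose 95% interval reached from -1.18 to 0.52. S100b had an interaction of 0.0046 (95% interval -0.44 to 0.45), the interval reaching about equally far to both sides. The smallest p belonged to Slc1a3 (log2 -0.12, SE 0.081, adjusted p = 1.0).

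The 4 groups were also ordered by their mean level for each member. High-Active saline had the highest mean for 6 members, Control amphetamine for 3 (Gfap, Slc1a2 and S100b), High-Active amphetamine for 1 (Fgfr3) and Control saline for none. Both High-Active groups stood above both Control groups for 7 members and below both for S100b and Gfap, and for Slc1a2 the lines alternated. For the 7, the log2 CPM step between the lines was 0.0018 for Aqp4, 0.031 for Sox9, 0.035 for Slc1a3 and 0.071 for Gja1. It was 0.17 for Fgfr3, 0.19 for Glul and 0.31 for Aldh1l1. The share of all genes with such an order was not computed. Of the 30 pairs of neighbouring groups, 5 had an exact permutation p under 0.05 (two-sided, 5 mice against 5, smallest possible p = 0.007937), and none did after adjustment over the 30 pairs (lowest adjusted p = 0.179). Those 5 steps were High-Active amphetamine over Control saline for Aldh1l1 (log2 CPM difference 0.31), Control saline over High-Active amphetamine for S100b (0.71), Control amphetamine over High-Active amphetamine for Slc1a2 (0.18), and High-Active saline over High-Active amphetamine for Gja1 (0.19) and Sox9 (0.25). A pair that alone reached the smallest possible p could not pass 0.1 after adjustment over 30 pairs. The neighbours were also set by the same means, so no conclusion about the groups is drawn from this test.

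Across mice, after the group means were removed, the astrocyte genes varied together only weakly. Over the 20 mice the 45 pairs had a median Pearson r of 0.11, from -0.41 for Slc1a2 with Gja1 to 0.57 for Gja1 with Fgfr3. The other pairs over 0.5 were Aqp4 with Gfap (r = 0.54) and Aldh1l1 with Glul (r = 0.53), and 14 pairs were negative. The Aqp4 and Gfap pair rested largely on mouse 871 (r = 0.28 without it), whereas that of Aldh1l1 and Glul did not (r = 0.53 without it). S100b had a median r of 0.024 with the other members and Slc1a2 of -0.18, the lowest of the 10. The points share their libraries, depth and normalization, and the values are given as a description.

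**Figure D3:**
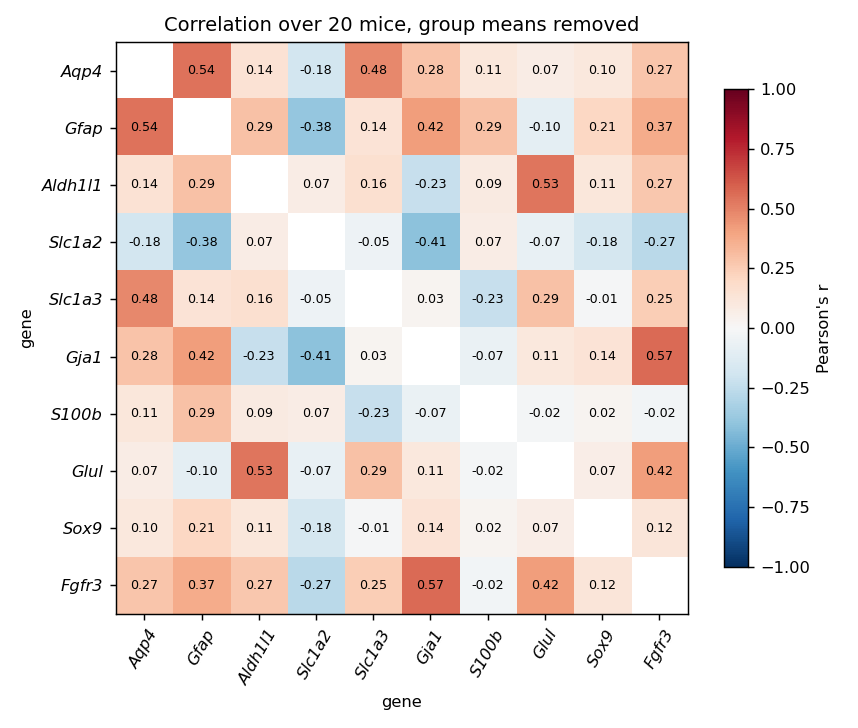
Pearson's r between each pair of astrocyte genes over 20 mice, from log2 CPM with the group means removed, on a color scale from -1 to 1. The pairs of Gja1 with Fgfr3, Aqp4 with Gfap and Aldh1l1 with Glul reach 0.53 to 0.57, while most others lie near 0.

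Among the 14782 other genes tested, the 8 with the highest mean r with the members were Glud1, Smo, Prss50, Entpd6, Ttll5, Pisd, Farp1 and Frs3, with a mean r of 0.36 for the first and 0.34 for the last, over 20 mice. Glud1 encodes glutamate dehydrogenase and Smo a receptor of the hedgehog pathway. Smo was also higher in High-Active mice (log2 0.31, adjusted p = 0.0597), and Glud1 had a log2 difference of 0.081 (adjusted p = 0.205). Of 51 further astrocyte genes, 5 were among the 100 most alike, and the median mean r of the 51 was 0.15, against 0.0075 for all genes.

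The 51 further genes known from astrocytes, in 6 lists, give the wider picture of the cell type. In the line comparison 8 of them were called, 7 higher and 1 lower, that is 15.7% where 14.5% of all genes were called, with a median log2 difference of 0.065. The transporters and channels held Slc6a11, the astrocyte GABA transporter GAT-3 (log2 0.58, adjusted p = 0.0261), and Kcnj10, the potassium channel Kir4.1 (log2 0.42, adjusted p = 0.00618), 2 of 9. Slc6a11 measured 120 to 223 CPM in Control and 159.9 to 347 CPM in High-Active mice, and Kcnj10 measured 167 to 260.4 CPM and 241 to 339.5 CPM. Both had larger log2 differences than Aldh1l1, the highest of the 10 members. Among the receptors Ednrb, an endothelin receptor, was higher (log2 0.34, adjusted p = 0.0435) and F3, tissue factor, was lower (log2 -0.17, adjusted p = 0.0599), 2 of 8. The remaining calls were Aldoc, an aldolase, at log2 0.19 (1 of 11 metabolic genes), Sox2 at 0.19 (1 of 8 transcription factors), and Htra1 at 0.17 and Gpc5 at 0.14 (2 of 8 secreted proteins). Of the 7 genes of junctions and endfeet none passed, the nearest being Mlc1 (log2 0.17, adjusted p = 0.116).

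Genes of reactive astrocytes did not share a direction. Of 17, 13 were expressed highly enough to be tested, and 3 of them were called (23.1%, where 14.5% of all genes were). Cd109 (log2 0.73) and Fbln5 (log2 0.63) were higher while Aspg (log2 -0.50) was lower in High-Active mice, with a list median of 0.031. Mean levels were near the 1 CPM filter for Cd109 (1.48 CPM in Control, 2.48 CPM in High-Active) and Aspg (1.43 and 1.01 CPM). Fbln5 reached 12.35 and 12.56 CPM in High-Active mice 197 and 415, against a High-Active median of 6.19 CPM. The partners of Glul and the transporters in the glutamate and glutamine cycle had 1 call of 7 (14.3%), near the share of all genes (14.5%). It was the glutamine transporter Slc38a1 (log2 0.16, adjusted p = 0.0781). The folate enzymes around Aldh1l1 had 2 of 11 (18.2%), the mitochondrial relative Aldh1l2 (log2 0.42) and thymidylate synthase Tyms (log2 0.41). Of 5 tested ligands of Fgfr3, 1 was called (20.0%), Fgf18, which was higher (log2 0.57, adjusted p = 0.0916). Its mean level lay near the 1 CPM filter, with 0.96 CPM in Control and 1.43 CPM in High-Active mice.

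**Figure D4:**
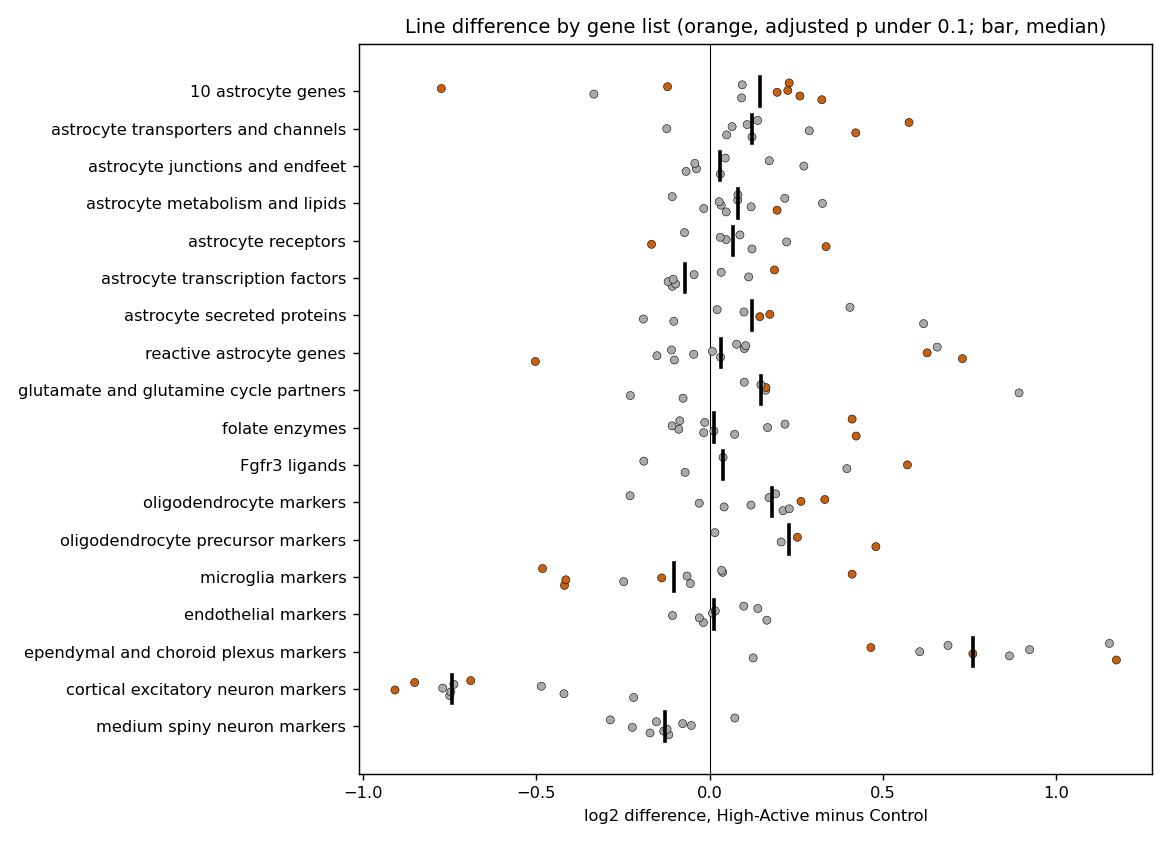
Log2 difference between the lines, High-Active minus Control, of each gene in the lists used; orange marks an adjusted p under 0.1 and the vertical bar the median of the list. The 10 astrocyte genes include the lowest astrocyte value, S100b at -0.77, and their median is 0.14, while cortical neuron markers lie to the left (median -0.74) and ependymal and choroid plexus markers to the right (median 0.76).

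Markers of the other cell types of the striatum place the astrocyte genes. In the line comparison 14.5% of all genes were called. Oligodendrocyte markers, of interest because some oligodendrocytes express S100b, had 2 of 10 called and higher, Mobp (log2 0.33) and Mbp (log2 0.26). The median of the list was 0.18, with 8 positive and 2 negative differences, the latter Mal (log2 -0.030) and Opalin (log2 -0.23). A part of oligodendrocytes in the S100b difference was not tested. The summed level of the oligodendrocyte markers was 4151 to 6947 CPM in Control and 5759 to 7555 CPM in High-Active mice. With cortical and oligodendrocyte markers both as covariates, S100b had a log2 difference of -0.68 (adjusted p = 0.0185). Oligodendrocyte precursor markers had 2 of 4 higher, C1ql1 (log2 0.48) and Gpr17 (log2 0.25). Microglia markers had 4 of 10 lower, Trem2 (log2 -0.48), Aif1 (log2 -0.42), C1qc (log2 -0.41) and Csf1r (log2 -0.14), and 1 higher, Itgam (log2 0.41). None of 8 endothelial or 10 medium spiny neuron markers passed, with medians of 0.012 and -0.13, and those with the smallest p were the glucose transporter gene Slc2a1 (log2 0.14, adjusted p = 0.165) and the G protein regulator gene Rgs9 (log2 -0.29, adjusted p = 0.102). In the amphetamine and interaction comparisons 0 genes of all these lists were called in the quasi-likelihood test, where 0 of all 14792 genes were.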

How the data were processed

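RNA was sequenced from the striatum of 20 mice, 1 library per mouse, with a TruSeq Stranded kit as 100 bp paired-end reads over 5 lanes. The authors aligned the reads with TopHat2 2.0.10 to GRCm38 with Ensembl 75 annotation and deposited raw read counts per gene from htseq-count 0.6.1. The strand setting is not given in the sources used here. The 5 summary rows of each file (15.97 to 17.489% of all its counts) were left out.

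Groups came from the labels. Counts were normalized by TMM and tested in edgeR 4.0.16 (glmQLFit, glmQLFTest; R 4.3.3) with 1 mean per group, after keeping genes over 1 CPM in at least 3 mice. P values were adjusted by the Benjamini-Hochberg method within each comparison, with a threshold of 0.1. Intervals use the SE and 16 residual degrees of freedom, and log2 CPM a prior count of 2. RPKM was computed here from CPM and the summed exon length. Genes were matched by symbol (163 of 164 list genes). The quasi-likelihood fit was tested on simulated data for the line comparison only. The alternatives were RLE, no filter or a 5-mouse filter, DESeq2 1.42.0, the likelihood-ratio test, limma-voom 3.58.1 with parents as a block, covariates of marker genes, and each mouse left out. The fits with ependymal and choroid plexus markers or without mice over 500 CPM of them were chosen after seeing the data. The members, lists and tests were chosen with earlier results of these data known. Named from the other lists were the genes that passed between the lines, at most the 6 with the smallest p, or where none did the one with the smallest p. For amphetamine and the interaction these lists are given as counts.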

Additional observations from a re-analysis of the deposited data

Results flagged for a closer look

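Within the 40 combinations of an astrocyte gene and a group of 5 mice, 2 held a mouse far from the others by Dixon's criterion (gap over range above 0.71), and chance alone gives about 1 in 20, or 2. S100b in Control saline mouse 477 was 6.75 log2 CPM, with the nearest other mouse at 7.52 (gap over range 0.802). Slc1a3 in Control amphetamine mouse 409 was 9.30 log2 CPM, with the nearest at 9.13 (gap over range 0.719). Without mouse 477 the line difference of S100b was -0.85, and without mouse 409 that of Slc1a3 was 0.11 (adjusted p = 0.0875).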

How the results depend on the processing

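The number of astrocyte genes called between the lines, 7, was 6 or 7 with RLE normalization, no filter, a 5-mouse filter, DESeq2, the likelihood-ratio test and limma-voom with parents as a block, and 5 to 7 with each mouse left out. It was 2 with the cortex covariate and 2 with the cortex and oligodendrocyte covariates. It was 5 with the ependymal and choroid plexus covariate, and 4 without the 4 mice over 500 CPM of these markers. Over all genes these fits gave 384, 368, 1185 and 733 calls. There were 2149 with no such change, 2810 by DESeq2 and 1381 to 2535 with a mouse left out (1381, 1400 and 1405 without mice 415, 883 and 871). S100b and Aldh1l1 were called in all these fits. The sign of the line difference of every member held in every fit. For amphetamine DESeq2 called 1 member, and 0 to 1 were called with a mouse left out. No member was called for the interaction in any fit, and at most 6 of all genes were (likelihood-ratio test).

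Some amphetamine and interaction differences changed sign, and none of these passed in any fit. For amphetamine these were Gfap at 0.078 (likelihood-ratio test), 0.047 (cortex covariate), 0.13 (ependymal and choroid plexus covariate) and 0.16 (4 mice removed), Aldh1l1 at 0.019 (4 mice removed), S100b at -0.075 and -0.072 (cortex, and cortex and oligodendrocyte covariates), and Glul at -0.0050 (likelihood-ratio test), -0.0034 (limma-voom) and -0.011 (ependymal and choroid plexus covariate). For the interaction these were Gfap at 0.033 and Aldh1l1 at 0.050 (4 mice removed), S100b at -0.092 and -0.091 (cortex, and cortex and oligodendrocyte covariates) and Glul at 0.0059 (cortex and oligodendrocyte covariates). With a mouse left out, the amphetamine difference ranged from -0.097 to 0.011 for Aqp4, -0.13 to 0.14 for Gfap, -0.058 to 0.014 for Aldh1l1, -0.035 to 0.081 for S100b and -0.038 to 0.037 for Glul. The interaction ranged from -0.53 to 0.0097 for Gfap, -0.10 to 0.036 for Aldh1l1 and -0.097 to 0.14 for S100b. The cause was not tested. The groups share no replicate numbers. By the labels some saline and amphetamine mice shared parents. With parents as a block, limma-voom called 0 genes in all, members included, for amphetamine and for the interaction. A fit within such families alone was not run. The number of mice (5 per group) limits the precision. Sox9 had the fewest counts (at least 531 per mouse). The SE of the line difference was 0.076 for Sox9, 0.080 for Aqp4 and 0.20 for Gfap. The shares of depth and of the spread between mice were not tested.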

Other observations

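The genes tested within 500 kb of each member were compared between the lines, a choice made after values were seen. Around the 10 members 18 of 101 such genes were called (17.8%, where 14.5% of all genes were). The region of S100b held 7 of these among 20 genes, Gm867 (log2 0.99), Col6a2 (0.65), Gstt1 (0.41), Prmt2 (0.26), Dip2a (0.20) and Zfp280b (0.16) higher and Lss (-0.30) lower in High-Active mice. The region of Gja1, on the same chromosome, held 0 of 2, and that of Sox9 0 of 2. Near Fgfr3, 2 of 17 were lower, Gm9903 (log2 -2.99) and Nelfa (-0.11).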
